A study of Homo sapiens with 4 samples.

Results

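The guide strands of the miR-23, miR-27 and miR-24 clusters were followed through the small RNA of hepatic cancer stem cells (HCSCs) and of the hepatocellular carcinoma (HCC) cells from which they had been cultured. The members were chosen by name, with earlier results of these data known, and they were hsa-miR-23a, hsa-miR-27a, hsa-miR-23b, hsa-miR-27b and hsa-miR-24, which are 5 of the 1733 miRNAs counted. Their levels and changes are therefore given as a description, without tests. Hep3B and Huh7 are hepatoma cell lines (HCC cells), and Hep3B-C and Huh7-C are the stem-like cells (HCSCs) grown from each of them. Each of these 4 populations had 1 library, and no replicate exists for any of them. The labels name no treatment, time or genetic change that would separate a stem-like population from its parent. The contrast within each line is thus between the library of the stem-like cells and that of the parent. Differences of culture or library preparation cannot be told apart from it.

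MiR-23, miR-27 and miR-24 are cut from hairpins that lie next to each other in the genome, and such a group can be transcribed as 1 long precursor. The human genome carries a copy of the group on each of 2 chromosomes, an a cluster and a b cluster, whose guide strands differ little or not at all. Each hairpin gives a guide strand, which binds target mRNAs mainly through its seed, and a passenger strand (marked with an asterisk here), which is usually degraded. In liver, the b cluster is known for repressing Smad genes of transforming growth factor beta signaling, miR-27 for its action on lipid metabolism genes, and miR-24 for acting on cell cycle genes.

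The sequences of the 5 guides are shown because the difference between the copies decides what can be compared. They were taken from RefSeq (GRCh38.p14) and are written 5′ to 3′, with the seed, bases 2 to 8, in capitals.
hsa-miR-23a: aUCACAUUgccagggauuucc
hsa-miR-23b: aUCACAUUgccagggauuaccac
hsa-miR-27a: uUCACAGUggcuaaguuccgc
hsa-miR-27b: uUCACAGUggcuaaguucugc
hsa-miR-24: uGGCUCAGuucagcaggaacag

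The a and b copies of miR-23 shared the seed UCACAUU, and those of miR-27 shared the seed UCACAGU. Both seeds opened with the same bases from position 2 to 6, and miR-24 had a seed of its own. Among 2370 mature miRNA names in RefSeq, the miR-23 seed was found in 3 names (miR-23a, miR-23b and miR-23c), the miR-27 seed in 3 (miR-27a, miR-27b and miR-9985) and the miR-24 seed in 1. Counted from 1 at the 5′ end, miR-23a and miR-23b differed within the length of miR-23a by U19A, and miR-27a and miR-27b differed by C19U. Each pair of copies is thus told apart by 1 base near the 3′ end, and reads of 18 nt or more had been kept, so that the shortest of them, starting at base 1, do not reach it. How reads matching both copies were counted is not given in the sources used here, and the part of such reads in the shares below was not tested. The mature miR-24 was identical from both clusters, and its count cannot be split between them.

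The a cluster lay on the minus strand of chromosome 19 (GRCh38, chr19:13836287-13836659, 373 bp). It held MIR23A, MIR27A and MIR24-2 within AC020916.1, a long non-coding gene of type antisense on the same strand in GENCODE release 29. Each of these hairpins overlapped an exon of the 1 transcript that spans it. The b cluster lay on the plus strand of chromosome 9 (chr9:95085208-95086088, 881 bp) within the protein-coding gene C9orf3. MIR23B and MIR27B were intronic in all 7 transcripts of C9orf3 that span them, and MIR24-1 overlapped an exon in 1 of the 7. MIR3074 was annotated on the opposite strand of the MIR24-1 hairpin, and MIR181C and MIR181D lay 38.04 kb from MIR23A on the opposite strand, in introns of NANOS3. The deposited counts had been made with an earlier genome build and carry no positions.

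MiRNA counts summed to between 1739278 (Hep3B) and 5741567 (Huh7) per library, and 664 to 773 miRNAs had at least 1 count. As a percentage of the total reads that the study lists, miRNA counts made up 10.4% and 35.2% in Hep3B and Hep3B-C, and 54.1% and 37.8% in Huh7 and Huh7-C. The Hep3B library thus stood apart, and a level scaled to total reads (TPM, tags per 1000000 total reads) and a share of miRNA counts can point in opposite directions in the Hep3B pair. The hepatocyte miRNA miR-122 had 397 counts in Hep3B against 149892 in Hep3B-C, and the Huh7 pair had 489443 (parent) and 144814 (HCSCs), so that this marker was low in 1 of the 4 liver-derived libraries. Of the 5 blood cell miRNAs listed (miR-142-3p, miR-142-5p, miR-223, miR-150 and miR-451), 3 were detected in Huh7, and their summed level was 74.9 TPM there against 0.0648 to 0.477 TPM in the other libraries. In Huh7 this was nearly all miR-451, the red blood cell miRNA, at 773 counts, with miR-223 and miR-150 at 0 counts (which allows up to 0.282 TPM). The mesenchymal miRNA miR-143 had 427 and 1706 counts in Hep3B and Hep3B-C, and 33 and 13 in Huh7 and Huh7-C, and its partner miR-145 had 5 counts in Hep3B-C and 0 in the other 3 (up to 0.179, 0.282 and 0.280 TPM). The part of other cell types in the results below was not tested.

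Of the a cluster guides, miR-23a had 421 and 289 counts in Hep3B and Hep3B-C, and 1802 and 781 in Huh7 and Huh7-C. Its level was 25.1 TPM (95% exact Poisson interval 22.7 to 27.6), 18.7 TPM (16.6 to 21.0), 170 TPM (162 to 178) and 72.9 TPM (67.9 to 78.2) in the same order. In TPM, Huh7 and Huh7-C were both above the Hep3B pair, and no neighbouring intervals overlapped. As a share of miRNA counts the order was different. Huh7-C (0.0193%, 0.0180% to 0.0207%) lay below Hep3B (0.0242%, 0.0219% to 0.0266%), with Huh7 highest (0.0314%) and Hep3B-C lowest (0.00532%). All intervals given here cover counting error only, and not the variation between cultures or library preparations.

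MiR-27a, the other a cluster guide, had 2340 and 1724 counts in Hep3B and Hep3B-C, and 7662 and 11356 in Huh7 and Huh7-C. Its level was 139 TPM (134 to 145), 112 TPM (106 to 117), 721 TPM (705 to 738) and 1060 TPM (1040 to 1080). It was lowest in Hep3B-C and highest in Huh7-C, that is, at opposite ends in the 2 HCSC populations, and this also held for its share of miRNA counts (0.0317% in Hep3B-C and 0.281% in Huh7-C). The shares in Hep3B (0.135%) and Huh7 (0.133%) lay between them, with overlapping intervals.

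Of the b cluster guides, miR-23b had 773 and 926 counts in Hep3B and Hep3B-C, and 445 and 76 in Huh7 and Huh7-C. Its level was 46.1 TPM (42.9 to 49.4), 60.0 TPM (56.2 to 64.0), 41.9 TPM (38.1 to 46.0) and 7.09 TPM (5.59 to 8.88). Hep3B and Huh7 were not separated by counting error in TPM, while Huh7-C stood far below the other 3 libraries on both scales.

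MiR-27b had 15208 and 21239 counts in Hep3B and Hep3B-C, and 14708 and 4189 in Huh7 and Huh7-C. In every library but Huh7-C, it was the most counted of the copies that can be told apart. Its level was 906 TPM (892 to 921), 1376 TPM (1357 to 1394), 1385 TPM (1362 to 1407) and 391 TPM (379 to 403). Hep3B-C and Huh7 were not separated by counting error in TPM, and Huh7-C was again the lowest, as it was as a share of miRNA counts (0.104%, against 0.256% to 0.874% in the other libraries). By count, miR-27b ranked 21st, 26th and 26th among all miRNAs in Hep3B, Hep3B-C and Huh7 and 38th in Huh7-C, where miR-27a ranked 26th.

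MiR-24, which both clusters produce, had 16334 and 15507 counts in Hep3B and Hep3B-C, and 19542 and 16951 in Huh7 and Huh7-C. Its level was 973 TPM (958 to 988), 1004 TPM (989 to 1020), 1840 TPM (1814 to 1866) and 1582 TPM (1558 to 1606), the narrowest range of the 5 guides in fold terms. As a share of miRNA counts the order was different, with Hep3B highest (0.939%) and Hep3B-C lowest (0.286%). The 5 guides together made up 2.02% of miRNA counts in Hep3B against 0.731% in its HCSCs, and 0.769% in Huh7 against 0.825% in its HCSCs.

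**Figure D1:**
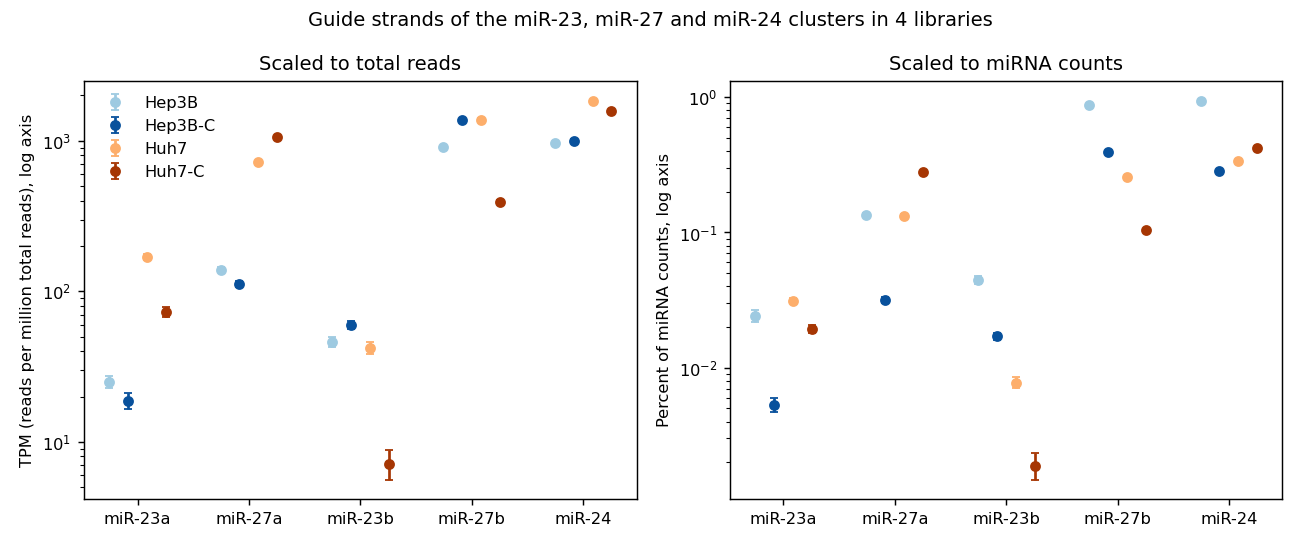
Level of each of the 5 guide strands in the 4 libraries (1 per population). The left shows TPM and the right the percentage of miRNA counts, both on log axes. Bars are 95% exact intervals of the counts, Poisson on the left and binomial on the right. MiR-27a is highest and miR-23b and miR-27b are lowest in Huh7-C on both scales, while Hep3B holds the highest share of miRNA counts for miR-23b, miR-27b and miR-24 but not the highest TPM.

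The relation between the a and b copies does not depend on how a library is scaled, since both counts come from the same library. Of the miR-23 counts, miR-23a made up 35.3% in Hep3B (95% Clopper-Pearson interval 32.5% to 38.0%) against 23.8% in Hep3B-C (21.4% to 26.3%), and 80.2% in Huh7 (78.5% to 81.8%) against 91.1% in Huh7-C (89.0% to 92.9%). Of the miR-27 counts, miR-27a made up 13.3% in Hep3B (12.8% to 13.8%) against 7.51% in Hep3B-C (7.17% to 7.86%), and 34.3% in Huh7 (33.6% to 34.9%) against 73.1% in Huh7-C (72.3% to 73.7%). Both families thus gave the same order, Hep3B-C, Hep3B, Huh7, Huh7-C, and no intervals overlapped within a family. The b copy held the majority of both families in Hep3B and Hep3B-C, the a copy held it in Huh7-C, and in Huh7 the a copy led for miR-23 and the b copy for miR-27.

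Within the Hep3B pair, the a to b ratio was lower in the HCSCs, by a log2 change of -0.80 for miR-23 (95% interval -1.06 to -0.55) and -0.92 for miR-27 (-1.02 to -0.83). Within the Huh7 pair it was higher in the HCSCs, by a log2 change of 1.34 for miR-23 (0.97 to 1.71) and 2.38 for miR-27 (2.31 to 2.44). The copies therefore shifted toward the b cluster in Hep3B-C and toward the a cluster in Huh7-C, for both miRNAs. Between the 2 HCSC populations the ratio was 32.9-fold higher in Huh7-C for miR-23 and 33.4-fold higher for miR-27. As background, 15 other pairs of miRNAs named as a and b copies had at least 10 counts in every library, a set chosen after the values of the members had been seen. Their ratios changed by a median of 0.67 (absolute log2) in the Hep3B pair, from -1.03 to 3.07, and of 0.69 in the Huh7 pair, from -1.11 to 1.99. The change of miR-27 in the Huh7 pair lay outside that range and the other 3 lay inside it, and 3 of the 15 pairs changed in opposite directions in the 2 lines.

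The passenger strands of miR-27 gave a second reading of the same hairpins. They are shown because they differ by more bases than the guides do. The first pair below has its seed in capitals, and the miR-24 pair has in capitals the bases at which its strands differ.
hsa-miR-27a*: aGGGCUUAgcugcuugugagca
hsa-miR-27b*: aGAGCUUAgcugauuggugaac
hsa-miR-24-2*: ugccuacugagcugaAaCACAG
hsa-miR-24-1*: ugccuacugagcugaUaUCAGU

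Compared position by position, miR-27a* and miR-27b* differed at 8 of 22 bases, the first of them G3A, within the seed. MiR-27a* had 468 and 400 counts in Hep3B and Hep3B-C, and 2710 and 2614 in Huh7 and Huh7-C, and miR-27b* had 614, 834, 2032 and 361. The a strand made up 43.3% (40.3% to 46.3%), 32.4%, 57.1% and 87.9% (86.6% to 89.0%) of them in that order, so that the order of the libraries was that of the guides. The log2 change of the ratio was -0.67 (-0.91 to -0.42) in the Hep3B pair and 2.44 (2.26 to 2.62) in the Huh7 pair. In Huh7 the guide counts favored miR-27b and the passenger counts favored miR-27a*, so that the copy in the majority there depended on the strand read.

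The passenger strands of miR-24 can be told apart between the clusters, unlike its guide, and they differed at 6 of 22 bases, from position 16 on. MiR-24-2* had 14 and 16 counts in Hep3B and Hep3B-C, and 104 and 56 in Huh7 and Huh7-C, and miR-24-1* had 4, 5, 9 and 2. The a cluster strand made up 77.8% (52.4% to 93.6%), 76.2% (52.8% to 91.8%), 92.0% (85.4% to 96.3%) and 96.6% (88.1% to 99.6%). In Hep3B and Hep3B-C this was opposite to the miR-23 and miR-27 guides and the miR-27 passengers, of which the b copy held the majority. Copies can differ in their guide to passenger ratio, which in Hep3B was 5 for miR-27a and 24.8 for miR-27b. These shares therefore do not give the cluster from which the miR-24 guide came. The log2 change of their ratio was -0.13 in the Hep3B pair (-2.74 to 2.39) and 1.28 in the Huh7 pair (-1.07 to 4.57), and neither change was detectable at this depth. Passenger counts of miR-23 were lower still. MiR-23a* had 2 counts in Huh7 and 0 in the other libraries (up to 0.179, 0.194 and 0.280 TPM in Hep3B, Hep3B-C and Huh7-C), and miR-23b* had 13, 7, 12 and 1.

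**Figure D2:**
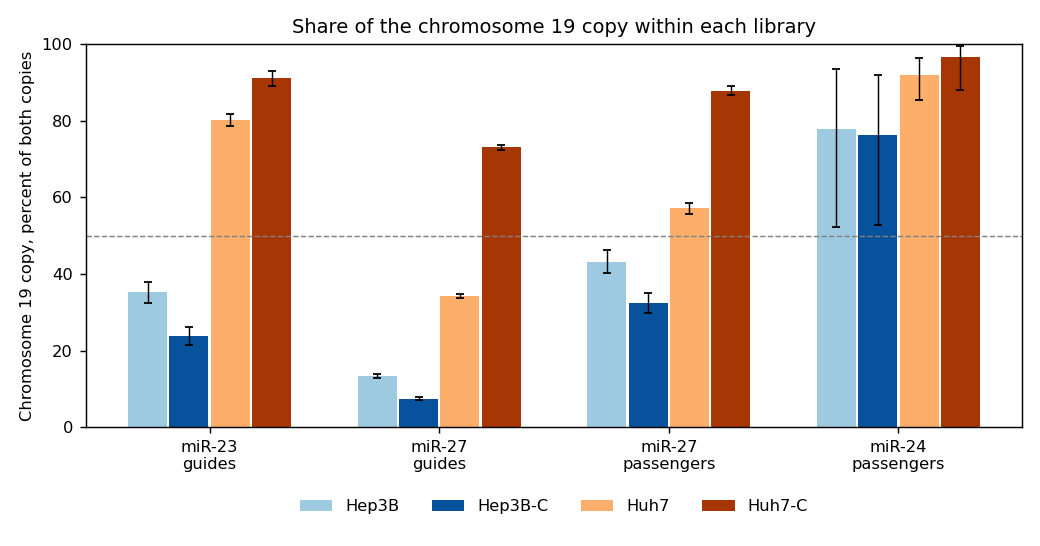
Percentage of counts that came from the chromosome 19 copy among both copies, in each library, for the guides of miR-23 and miR-27 and the passengers of miR-27 and miR-24. Bars are the share, whiskers its 95% Clopper-Pearson interval, and the dashed line marks equal counts; the share is lower in Hep3B-C than in Hep3B and higher in Huh7-C than in Huh7 in the first 3 sets, and the wide whiskers of the last rest on 18 to 113 counts.

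Each HCSC library was next compared with its parent by the log2 fold-change of TPM. In the Hep3B pair, miR-23a changed by -0.42 (95% interval -0.64 to -0.20) and miR-27a by -0.32 (-0.41 to -0.23) on the log2 scale. In the b cluster, miR-23b changed by 0.38 (0.24 to 0.52) and miR-27b by 0.60 (0.57 to 0.63), and miR-24 changed by 0.05 (0.01 to 0.08). None of the 5 guides passed the call rule of the study, a log2 fold-change of at least 1 in either direction with a Benjamini-Hochberg adjusted p of at most 0.01. Of all 834 miRNAs tested here in this pair, the share called was 34.1% for higher levels in Hep3B-C and 2.52% for lower ones. The set tested includes miRNAs with as little as 1 count in the pair. The paper itself reports a larger share in each direction for both pairs.

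A count of 10 or more in Hep3B or Hep3B-C was reached by 475 miRNAs, whose median log2 fold-change was 1.42, against 0.05 for the 5 guides. Relative to that median, the changes were -1.85 for miR-23a, -1.74 for miR-27a, -1.04 for miR-23b, -0.82 for miR-27b and -1.38 for miR-24. Scaled to miRNA counts in place of total reads, the median of all miRNAs became -0.34 and the 5 changes became -2.19, -2.08, -1.38, -1.16 and -1.72. The direction of miR-23b, miR-27b and miR-24 in Hep3B-C thus flipped with the scaling, from higher per total reads to lower per miRNA count. A change of library size moves the guides and the median alike, so that the distances from the median given above are the same under both.

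In the Huh7 pair, miR-23a was down-regulated in the HCSCs with a log2 fold-change of -1.22 (-1.34 to -1.10), miR-23b with -2.56 (-2.93 to -2.21) and miR-27b with -1.82 (-1.87 to -1.77). MiR-27a changed by 0.56 (0.51 to 0.60) and miR-24 by -0.22 (-0.25 to -0.19), and neither passed the call rule. The 3 down-regulated guides are read beside 17.1% of all 772 miRNAs called down-regulated in this pair and 3.11% called up-regulated, and nothing is drawn from their number because the guides were chosen with these changes known. The median log2 fold-change of 431 miRNAs was -0.66, against -1.22 for the 5 guides. Relative to it, the changes were -0.55 for miR-23a, 1.22 for miR-27a, -1.90 for miR-23b, -1.16 for miR-27b and 0.45 for miR-24.

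Scaled to miRNA counts, the changes in the Huh7 pair were -0.70 for miR-23a, 1.07 for miR-27a, -2.04 for miR-23b, -1.31 for miR-27b and 0.30 for miR-24, with a median of all miRNAs of -0.15. MiR-23b and miR-27b were thus lower in Huh7-C under both scalings, and miR-27a was higher under both. MiR-24 changed direction, and miR-23a remained lower but by less than the 2-fold of the call rule.

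**Figure D3:**
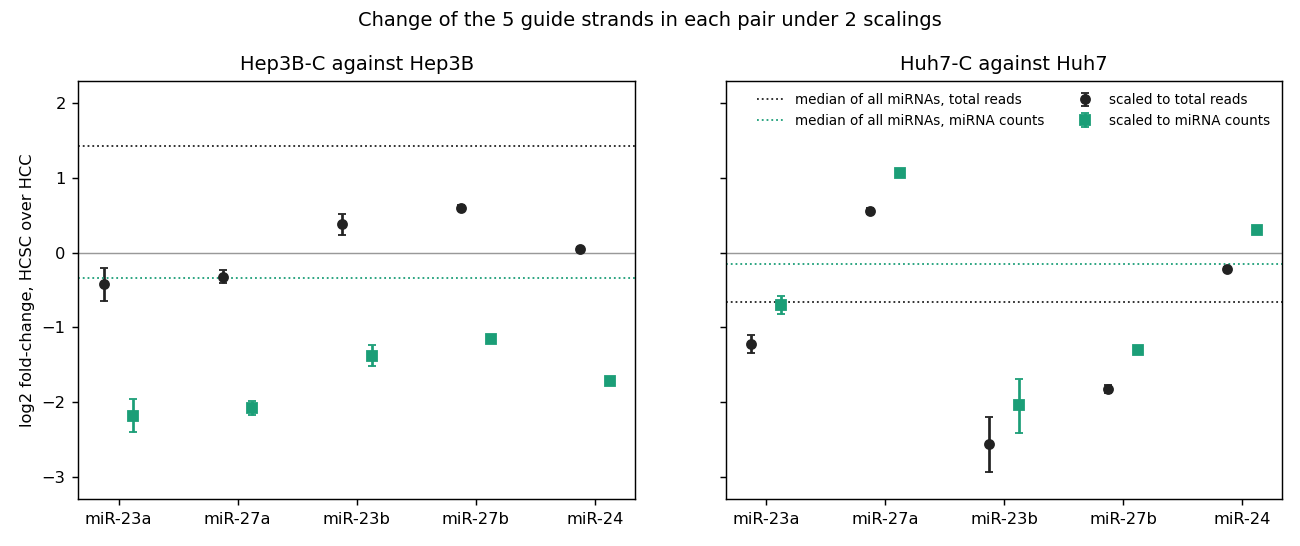
Log2 fold-change of each guide strand in the HCSC library over its parent HCC library, scaled to total reads (circles) or to miRNA counts (squares), with 95% counting intervals and the median of all miRNAs with at least 10 counts as dotted lines. In the Hep3B pair miR-23b, miR-27b and miR-24 lie above 0 with total reads and below 0 with miRNA counts, and in the Huh7 pair miR-24 flips the other way; miR-27a lies above 0 and miR-23b and miR-27b below 0 in the Huh7 pair under both scalings.

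Because the copies share a seed, their sum was also followed. MiR-23a and miR-23b together stood at 71.1 TPM in Hep3B against 78.7 TPM in Hep3B-C, and at 212 TPM in Huh7 against 80.0 TPM in Huh7-C. As a share of miRNA counts this was 0.0686%, 0.0224%, 0.0391% and 0.0212%, so that the direction in the Hep3B pair flipped with the scaling. MiR-27a and miR-27b together stood at 1046, 1487, 2106 and 1451 TPM, which was 1.01%, 0.423%, 0.390% and 0.384% of miRNA counts. Between the 2 HCSC populations the sums in TPM had a log2 difference (Huh7-C over Hep3B-C) of 0.02 for miR-23 (-0.10 to 0.15) and -0.04 for miR-27 (-0.07 to -0.01). The single copies differed far more between the same libraries, by 1.96 for miR-23a, 3.25 for miR-27a, -3.08 for miR-23b and -1.81 for miR-27b, and the signs of these 4 were the same per miRNA count (1.86, 3.14, -3.18 and -1.92). The median miRNA differed by -0.82 between these libraries in TPM, and relative to it the sums were higher in Huh7-C, by 0.84 for miR-23 and 0.78 for miR-27.

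Ratios within 1 cluster were read next, since the guides of a cluster can share a precursor. For each count of miR-23a, miR-27a had 5.56 counts in Hep3B (5.01 to 6.18) against 5.97 in Hep3B-C (5.26 to 6.78), and 4.25 in Huh7 (4.04 to 4.48) against 14.5 in Huh7-C (13.5 to 15.7). The log2 change was 0.10 in the Hep3B pair (-0.13 to 0.34) and 1.77 in the Huh7 pair (1.65 to 1.90). The a cluster guides thus changed by unlike amounts in the Huh7 pair, where miR-23a and miR-27a had changed in opposite directions. On chromosome 9, miR-27b had 19.7, 22.9, 33.1 and 55.1 counts for each count of miR-23b, with a log2 change of 0.22 (0.08 to 0.36) in the Hep3B pair and 0.74 (0.38 to 1.09) in the Huh7 pair.

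Within the hairpins, miR-27a had 5 counts for each miR-27a* in Hep3B against 4.31 in Hep3B-C, and 2.83 in Huh7 against 4.34 in Huh7-C. MiR-27b had 24.8, 25.5, 7.24 and 11.6 counts for each miR-27b*. Relative to its guide, the passenger was thus most abundant in Huh7 for both hairpins, and the guide to passenger ratio was higher in Huh7-C than in Huh7 by 0.62 (0.53 to 0.71) for miR-27a and 0.68 (0.51 to 0.85) for miR-27b on the log2 scale. In the Hep3B pair the changes were -0.21 (-0.43 to -0.00181) and 0.04 (-0.11 to 0.19). MiR-24 had 0.931 counts for each count of miR-27a and miR-27b together in Hep3B against 0.675 in Hep3B-C, and 0.874 in Huh7 against 1.09 in Huh7-C.

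**Figure D4:**
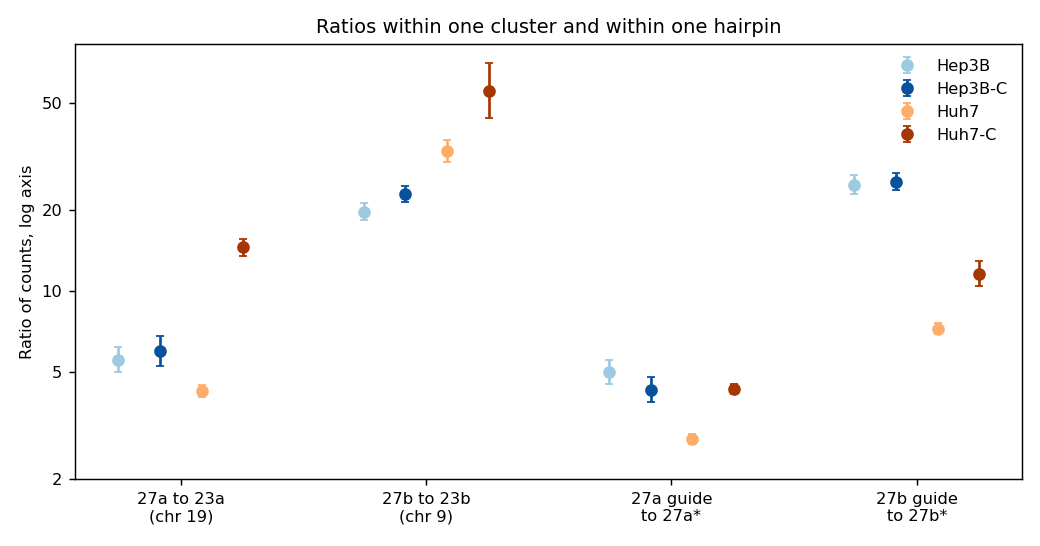
Ratios of counts within each library on a log axis, with 95% intervals from the counts: miR-27 to miR-23 in each cluster, and the guide to the passenger strand of each miR-27 hairpin. The ratio of miR-27a to miR-23a is 14.5 in Huh7-C against 4.25 to 5.97 in the other libraries, and both guide to passenger ratios are lowest in Huh7.

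The listed passenger strands and neighbors, a list drawn up with earlier results of these data known, were given the same comparison. In the Hep3B pair, 0 of the 8 tested were called up-regulated and 2 down-regulated, beside 34.1% and 2.52% of all miRNAs. These were miR-181c (88 counts in Hep3B and 28 in Hep3B-C, log2 fold-change -1.53) and miR-181d (869 and 224 counts, -1.84), the neighbors on chromosome 19. In the Huh7 pair, 1 of the 10 tested was called up-regulated and 3 down-regulated, beside 3.11% and 17.1% of all miRNAs. The down-regulated strands were miR-27b* (-2.51, -2.67 to -2.34), miR-23b* (12 counts and 1 count, -3.60, -9.02 to -0.84) and miR-181c (56 and 27 counts, -1.06, -1.78 to -0.38). The up-regulated strand was miR-3074-5p, from the strand opposite MIR24-1, at 5 counts in Huh7 and 21 in Huh7-C (2.06, 0.61 to 3.82). MiR-27a* changed by -0.06 (-0.14 to 0.01) in the Huh7 pair and by -0.11 (-0.30 to 0.09) in the Hep3B pair. Scaled to miRNA counts, its changes were 0.45 (0.38 to 0.53) and -1.87 (-2.07 to -1.67) in the same order. On that scale miR-27b* changed by -1.20 in the Hep3B pair, against 0.56 with total reads. MiR-181c changed by -0.55 (-1.27 to 0.14) on that scale in the Huh7 pair. The calls of this list were made with total reads only. MiR-23c, the copy of miR-23 on chromosome X that shares its seed, had 0 counts in all 4 libraries, which allows up to 0.179 TPM in Hep3B and 0.282 TPM in Huh7.

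The miRNAs with the pattern nearest to each guide were taken as the 3 with the smallest root mean square difference in log2 TPM over the 4 libraries, after each miRNA's mean had been removed, among 130 miRNAs with at least 100 counts in every library. MiR-23b, with 76 counts in Huh7-C, was not among them. MiR-27a lay nearest to its own passenger miR-27a* (0.31), then to miR-374a (0.66) and to its cluster partner miR-23a (0.67). MiR-23a lay nearest to miR-21 (0.50), miR-29b (0.52) and miR-29a (0.53). MiR-27b lay nearest to miR-18a (0.18), miR-99b* (0.29) and miR-455-5p (0.33), and miR-24 to miR-769-5p (0.064), miR-598 (0.19) and miR-148b* (0.26). Of the 4 guides compared, miR-27a alone had strands of its own cluster among its 3 nearest.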

How the data were processed

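Small RNA of 4 cell populations was measured, with 1 library each, grouped by the cell line in the labels. The authors removed reads under 18 nt, mapped the rest to NCBI Build 36.1 with SOAP and assigned them to miRBase 17, and deposited the raw count of each miRNA per library, without normalization. The aligner's settings and the treatment of reads matching 2 miRNAs are not given in the sources used here.

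The members and lists were chosen with earlier results of these data known. TPM was computed as the count per 1000000 total reads, using the total reads that the study lists, so that the depth limit of 3 counts was 0.179 to 0.282 TPM. Pairs were compared by the exact test of Audic and Claverie for Poisson counts (two-sided), with Benjamini-Hochberg adjustment over the miRNAs detected with 1 count or more in the pair, a TPM of 0 being set to 0.001. This test compares libraries, not conditions. Medians used 0.5 added counts. Intervals for folds and shares are exact binomial, and those for changes of a ratio are normal on the log scale except with few counts. The test was run on simulated Poisson counts with known 4-fold changes. Such counts follow the model of the test, so this check does not cover variation between cultures or the choice of library size. Named miRNAs were the 5 members, the listed passenger strands and neighbors, and the 3 nearest patterns per member.

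Alternatives were total miRNA counts, TMM (edgeR 4.0.16) and DESeq2 1.42.0 size factors as library sizes, total miRNA counts without the 5 most abundant miRNAs, a 4-fold limit, other filters and pseudocounts, and passenger strands in place of guides. Sequences came from RefSeq (GRCh38.p14) and positions from GENCODE 29, without conversion. Python 3.11.15 with scipy 1.17.1 and R 4.3.3 were used. The mRNA data were not analysed here.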

Additional observations from a re-analysis of the deposited data

Results flagged for a closer look

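Several guides and ratios moved one way in the Hep3B pair and the other way in the Huh7 pair. This difference was not tested, since each population had 1 library. Scaled to total reads, the changes (log2, Hep3B pair then Huh7 pair) were -0.32 and 0.56 for miR-27a, 0.38 and -2.56 for miR-23b, 0.60 and -1.82 for miR-27b, and 0.045 and -0.22 for miR-24. With miRNA counts as library sizes, miR-23b and miR-27b were lower in both HCSC libraries, and miR-24 was lower in Hep3B-C and higher in Huh7-C. The ratio of the a copy to the b copy, which does not depend on the scaling, changed by -0.80 and 1.34 for the guides of miR-23, by -0.92 and 2.38 for the guides of miR-27 and by -0.67 and 2.44 for the passengers of miR-27. For miR-24-2* against miR-24-1* the changes were -0.13 and 1.28, both with intervals that include 0.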

How the results depend on the processing

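The other library sizes were total miRNA counts, TMM, DESeq2 size factors and total miRNA counts without the 5 most abundant miRNAs, and values are given in that order. The share of all miRNAs called is given only for total reads with the 2-fold limit. Nothing is therefore drawn from the numbers of guides called under other settings. In the Hep3B pair, 5, 3, 3 and 4 guides were called down-regulated, against 0 with total reads. The log2 fold-changes there were -2.19, -1.57, -1.59 and -1.90 for miR-23a, -2.08, -1.47, -1.49 and -1.80 for miR-27a, -1.38, -0.77, -0.78 and -1.10 for miR-23b, -1.16, -0.55, -0.56 and -0.88 for miR-27b, and -1.72, -1.11, -1.12 and -1.44 for miR-24. The last 3 were reversed. The sums of both copies were reversed too, at -1.62, -1.01, -1.02 and -1.34 for miR-23 and -1.25, -0.64, -0.66 and -0.97 for miR-27 (these sums were added after seeing the data). In the Huh7 pair, 1 guide was called up-regulated under each of the 4, against 0. MiR-27a passed the call rule at 1.07, 1.06, 1.17 and 1.29, miR-23a no longer did at -0.70, -0.71, -0.61 and -0.48, and miR-24 was reversed at 0.30, 0.29, 0.40 and 0.52. The miR-27 sum was reversed at 0.076 with DESeq2 size factors and 0.20 without the 5 most abundant miRNAs. Under each of the 4, 2 guides were called down-regulated in the Huh7 pair, against 3 with total reads, and with a 4-fold limit 1 guide was. The 17.1% down-regulated and 3.11% up-regulated of all miRNAs in this pair belong to total reads and the 2-fold limit, and not to these settings.

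Passenger strands in place of guides gave a log2 ratio of miR-27a to miR-27b of -0.39 in Hep3B, -1.06 in Hep3B-C, 0.42 in Huh7 (reversed) and 2.86 in Huh7-C. For miR-23a to miR-23b they gave -2.58 in Huh7 (reversed, on 2 and 12 counts) and no value elsewhere, where miR-23a* was at 0. For the summed copies they gave -0.39, -1.02, 0.46 (reversed in Huh7) and 2.87, and the mean of the miR-23 and miR-27 log2 ratios gave -1.79, -2.65, 0.54 (reversed in Huh7) and 2.40. The cause of these differences was not tested. Leaving out a replicate was not possible with 1 library per population. A fit of both lines together, with the line as a block, was not run. MiR-23b in Huh7-C, at 76 counts, and the passengers of miR-23 and miR-24 are limited by depth.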
